A study of Homo sapiens with 9 samples.

Results

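Collagen genes were taken here as every gene whose symbol in the authors' table is COL, a number, A and a number. This rule found 44 genes under 50 identifiers, out of 64253 gene identifiers in the count files. COL11A2 has 7 identifiers, all with 0 counts in every library. RNA was sequenced from IMR90, fibroblasts of human fetal lung whose number of divisions in culture is limited, in 9 libraries in 3 groups of 3 (a, b and c). The control group, called Control in the labels, carried the pLKO.1 lentiviral vector, empty by the sample labels and with GFP by the treatment protocol. The shRRM2 group, labelled Senescence, carried a short hairpin RNA against RRM2, a subunit of the enzyme that makes the deoxyribonucleotides for DNA synthesis. The shRRM2/shp16 group, labelled Senescence-bypass, carried that hairpin and a second one against p16, a brake on the cell cycle that the gene CDKN2A encodes. All 3 groups grew at 2% oxygen, were used at population doubling 30, received the second virus 24 hours after the first and were selected with 3 ug/mL puromycin for 7 days. The labels name 1 hairpin per target, and there was no library with the p16 hairpin alone. The labels do not say whether the libraries of a group came from separate infections, so the p-values measure only the spread between these libraries.

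Collagens are secreted proteins whose alpha chains wind around each other into a rope-like helix, and together they form much of the extracellular matrix. Fibrillar collagens build the tensile fibers of connective tissue, network collagens form the sheets of basement membranes, and other classes coat, anchor or link these structures. Fibroblasts are the main source of fibrillar collagen in the lung, and the senescent state of these cells is known for an altered output of matrix proteins and of the enzymes that process them.

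RRM2 stood at 481, 491 and 484 CPM in the control, 60.0, 63.2 and 63.2 in shRRM2 and 181, 175 and 176 in shRRM2/shp16. The libraries of the 3 groups did not overlap, and the control was highest. RRM2 was higher in shRRM2/shp16 than in shRRM2, so these groups differ in RRM2 level as well as in the p16 hairpin. The part of that difference in the results below was not tested. Below, "with the p16 hairpin" only names the comparison of shRRM2/shp16 against shRRM2. CDKN2A stood at 5.95, 6.15 and 5.96 CPM in the control, 6.79, 6.75 and 5.97 in shRRM2 and 4.33, 3.93 and 4.57 in shRRM2/shp16, lowest in the group with the p16 hairpin. CPM is a gene's count put on a common library size, after TMM scaling of the libraries. Gene-assigned counts ran from 15770895 to 24873291 per library. Reads that fell outside annotated genes made up 17.6% to 18.9% of unique reads in the control, 27.7% to 28.8% in shRRM2 and 23.5% to 24.4% in shRRM2/shp16, so this share moved with the group, and its part in the results below was not tested. All 9 fibroblast markers were tested, and their summed level was 17480 to 18090 CPM in the control, 19160 to 19840 in shRRM2 and 10230 to 10390 in shRRM2/shp16. FN1 and VIM carry most of that sum. FN1 went from a mean of 10993 CPM in the control to 14832 in shRRM2, and FAP was also higher there. VIM went from 5334 to 3525, and DCN, PDGFRA, PDGFRB and THY1 were also lower in shRRM2 than in the control. LUM and S100A4 overlapped between these groups. PDGFRA was highest in shRRM2/shp16, with 707 to 714 CPM against 259 to 269 in the control and 185 to 189 in shRRM2. The epithelial markers (2 of 5 tested; SFTPC and KRT5 at 0) summed to 2.15 CPM or less and the blood markers (1 of 3 tested; CD3E at 0) to 2.93 or less. Endothelial markers (3 of 4 tested) summed to 64.0 to 68.4, 66.8 to 71.7 and 110.5 to 120.1 CPM in the order control, shRRM2, shRRM2/shp16. That sum is mainly TEK, and CDH5 was at 0 to 0.0574 CPM. Smooth muscle and pericyte markers (3 of 4 tested) summed to 362 to 380, 303 to 324 and 127 to 145 CPM, and cartilage markers (3 of 4) to 153 to 161, 125 to 127 and 62.9 to 66.4. The first of these sums is mainly CSPG4 and CNN1, while RGS5 of the same list rose in that order. The second is mainly SOX9. The part of these marker shifts in the collagen results was not tested. In bulk RNA, fewer cells of a type and less RNA per cell cannot be told apart.

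Of the 44 collagen genes, 32 had enough counts to be tested. The other 12 had at most 8 counts in any library. They are COL2A1, COL4A3, COL6A5, COL6A6, COL9A1, COL10A1, COL11A2, COL19A1, COL20A1, COL21A1, COL23A1 and COL26A1, and they include COL2A1, the main collagen of cartilage. Levels of different genes are compared here only per length, as RPKM (reads per kilobase of gene length, on a common library size). In the control, COL1A1 was highest with 1249 ± 9.11 RPKM, followed by COL1A2 with 545 ± 8.42, COL6A2 with 482 ± 13.8, COL6A1 with 437 ± 4.49 and COL6A3 with 382 ± 6.6 (mean ± SD, n = 3). COL3A1 had 244 ± 2.24, COL4A1 216 ± 2.69, COL4A2 204 ± 2.21 and COL12A1 202 ± 0.654 RPKM. COL4A2 and COL12A1 are neighbours in this order whose means lie within their spread. In shRRM2/shp16 the order below COL1A1 and COL1A2 changed: COL3A1 followed with 553 ± 6.85 RPKM, above COL6A1 with 497 ± 6.52.

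**Figure D1:**
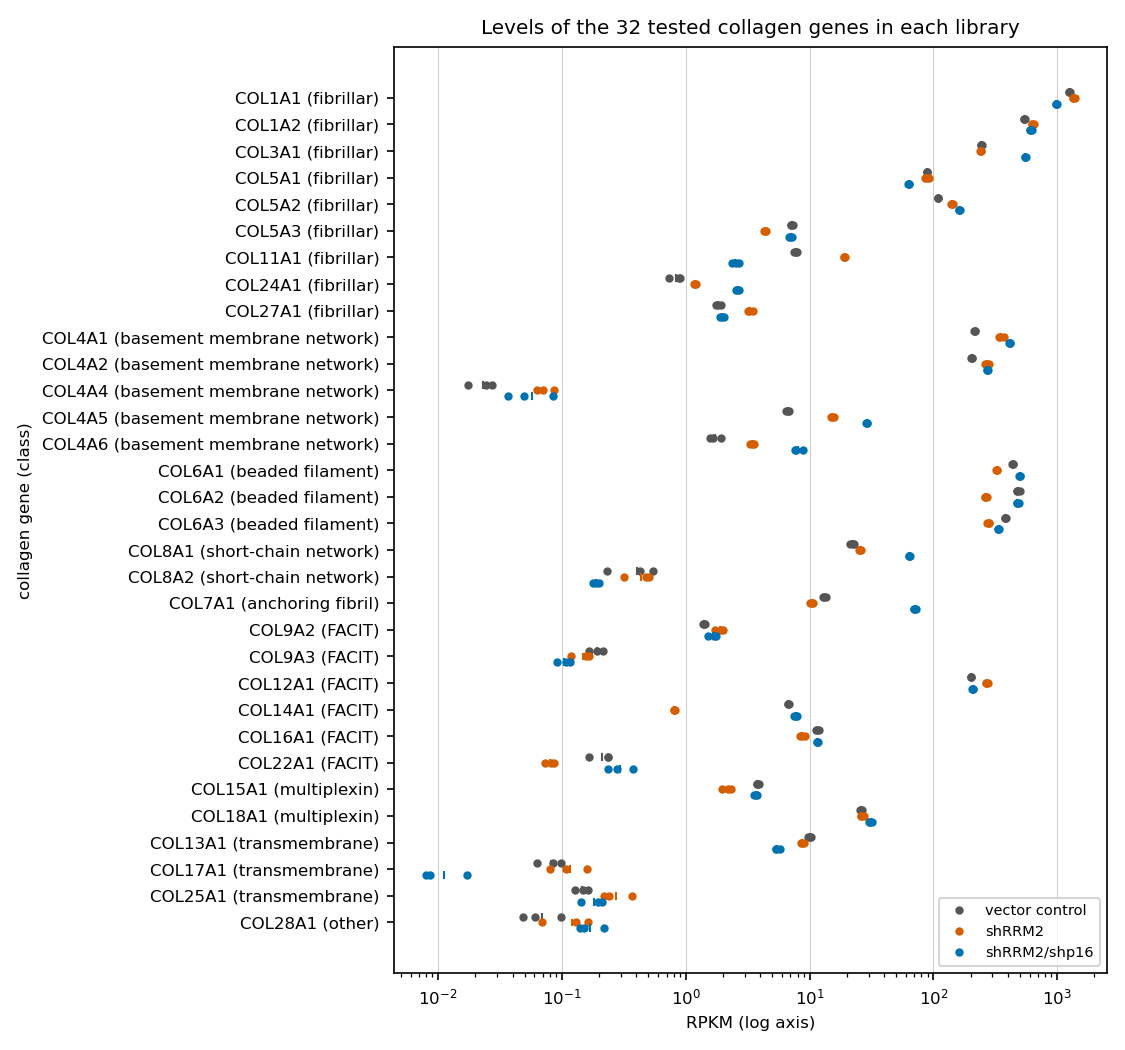
RPKM on a log axis for the 32 tested collagen genes, 1 point per library and a short line at each group's mean (3 libraries a group), with the class of each gene in brackets. COL7A1 and COL3A1 lie further right in shRRM2/shp16 than in both other groups, COL14A1 lies furthest left in shRRM2, and the genes below 1 RPKM show the widest spread between libraries.

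With RRM2 depleted, all 3 tested type VI chains fell, and all 5 tested chains of type IV collagen, which forms the sheets of basement membranes, rose, as did the fibrillar gene COL11A1. Of the 6 tested FACITs, collagens that attach to the surface of fibrils, COL14A1, COL16A1 and COL22A1 fell and COL12A1 and COL9A2 rose. COL15A1, also a basement membrane collagen, fell, and COL18A1 did not pass the test. Of the 32 tested collagens, 26 (81.2%) changed at an adjusted p under 0.05, against 60.9% of all 16561 tested genes. There were 15 higher and 11 lower, against 29% and 31.8% of all genes, and 5 changed at least 2-fold (15.6%, against 10.1%). The median log2 fold change was 0.13 and the median size 0.46, against 0.00 and 0.32 over all tested genes. Collagens also carry more counts than most genes, with a median level of 6.48 on the log2 CPM scale against 3.97, and nothing particular to them is read from the larger share. The tests are edgeR's quasi-likelihood tests with Benjamini-Hochberg adjustment over all tested genes. The largest fall was that of COL14A1 (log2 fold change -3.10), and COL4A4, at under 1 CPM, had the largest rise (1.59).

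In shRRM2/shp16 against shRRM2, COL14A1 rose 9.13-fold, COL7A1 6.52-fold, COL8A1 2.39-fold and COL3A1 2.19-fold, and all 3 tested type VI chains rose. COL11A1 fell 7.9-fold and COL8A2 2.37-fold, and COL17A1 fell to 4 counts in the group. In all, 28 of 32 collagens (87.5%) differed from shRRM2 alone, against 61.1% of all tested genes. There were 17 higher and 11 lower, against 31.9% and 29.1%. Changes of at least 2-fold were found for 10 collagens (31.2%), against 11.8% of all genes, and the median size of change was 0.64, against 0.32. The median log2 fold change was 0.16, against 0.01 over all genes.

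Set against the control, shRRM2/shp16 cells had more COL7A1 (5.0-fold), COL4A6 (4.39-fold), COL4A5 (4.03-fold), COL24A1 (2.88-fold), COL8A1 (2.7-fold) and COL3A1 (2.11-fold). They had less COL11A1 (3.3-fold), COL8A2 (2.28-fold) and COL13A1 (1.96-fold), while COL14A1 and COL27A1 did not pass the test. The groups differed in 27 of 32 collagens (84.4%), where 62.4% of all tested genes did. Here 14 were higher and 13 lower, against 30% and 32.4%, and 11 changed at least 2-fold (34.4%, against 12.6%). The median log2 fold change was 0.09 and the median size 0.46, against 0.01 and 0.34. The 3 comparisons share libraries, so each gene's 3 changes are not independent and are given side by side. Several differences in this comparison lost their call when 1 library was left out, most of them for more than 1 choice of library. COL1A2 lost its call without control c or shRRM2/shp16 a (0.05 and 0.05). COL12A1 lost it without control a (-0.05) or any of shRRM2/shp16 a, b or c (-0.06, -0.05 and -0.05). The log2 fold changes of COL5A3 without control b or shRRM2/shp16 b or c (-0.12, -0.11 and -0.12) did not pass either. The same holds for COL16A1 without control a or shRRM2/shp16 a or c (-0.08, -0.09 and -0.09). COL15A1 did not pass without control a or b (-0.12 and -0.15), shRRM2 b (-0.14) or shRRM2/shp16 a, b or c (-0.12, -0.16 and -0.14). COL9A3 did not pass without shRRM2/shp16 a (-0.85). The limma alternatives used the RPKM values of the authors' deposited table, whose shRRM2 c column does not match its counts, and 1 of them left that column out (8 matching columns). In limma on log2(RPKM + 1), with and without that column, COL5A3 (-0.03), COL15A1 (-0.03) and COL16A1 (-0.000378) kept a negative sign in this comparison but did not pass. The shRRM2 c column is in neither group of this comparison, so leaving it out could change only the estimate of spread. DESeq2 gave no call for COL4A4 (adjusted p = 0.082), COL9A3 (0.0583) and COL15A1 (0.123).

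**Figure D2:**
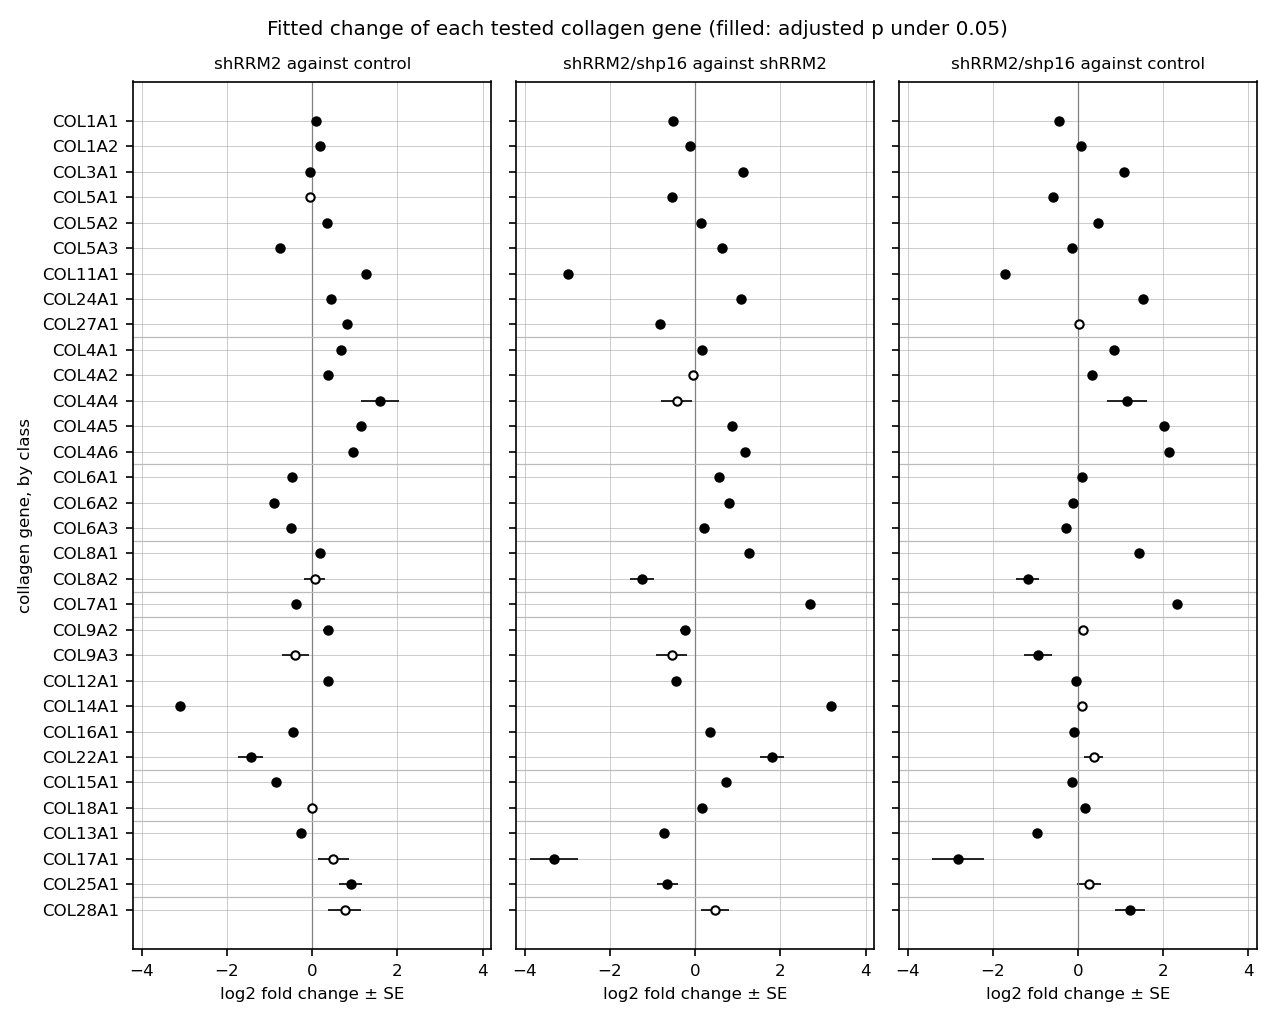
Log2 fold change from the edgeR fit for each tested collagen gene, with a standard error derived from the F statistic of its test. Genes are ordered by class in the 3 comparisons (3 libraries a group), with filled points for an adjusted p under 0.05. COL14A1 is lowest on the left (-3.10) and highest in the middle (3.19), COL11A1 goes the other way (1.26 and -2.98), and COL7A1 is the highest on the right (2.32).

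Among the fibrillar collagens, 8 of 9 tested changed in shRRM2 against the control (88.9%; 6 higher, 2 lower). In shRRM2/shp16 against shRRM2 9 of 9 changed (100%; 4 higher, 5 lower), and in shRRM2/shp16 against the control 8 of 9 (88.9%; 4 higher, 4 lower). Over all tested genes 60.9%, 61.1% and 62.4% changed. The fibrillar genes had a median level of 9.82 on the log2 CPM scale, against 3.97 over all tested genes, and nothing is read from these counts. COL1A1 and COL1A2 encode the chains of type I collagen, the main collagen of fibers. COL1A1 stood at 12889, 12579 and 12653 CPM in the control, 13267, 13681 and 13407 in shRRM2 and 9463, 9271 and 9257 in shRRM2/shp16. The shRRM2/shp16 libraries were lowest, with no overlap between groups. COL1A1 rose slightly in shRRM2 (log2 fold change 0.08 ± 0.02 SE, edgeR adjusted p = 0.000827) and fell with the p16 hairpin (log2 fold change -0.53 ± 0.02 SE, edgeR adjusted p = 4.02e-25). Without a low-count filter the first of these was 0.04 and no longer passed (adjusted p = 0.101 in edgeR). COL1A2 stood at 6452, 6236 and 6226 CPM in the control, 7013, 7263 and 7096 in shRRM2 and 6699, 6540.2 and 6481 in shRRM2/shp16. It was highest in shRRM2 (log2 fold change 0.18 ± 0.02 SE, edgeR adjusted p = 5.19e-09), and shRRM2/shp16 lay between the other groups (log2 fold change -0.12 ± 0.02 SE, edgeR adjusted p = 1.85e-05). The fall with the p16 hairpin did not pass in any of the 4 limma alternatives (log2 fold change -0.09 to -0.06, limma adjusted p = 0.0608 to 0.148), the 8 matching columns included.

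COL3A1 encodes type III collagen, which joins type I in the fibers of distensible organs such as lung. The gene (GRCh38 chr2:188974320-189012746) stood at 1747, 1714 and 1705 CPM in the control, 1633, 1670.0 and 1668 in shRRM2 and 3689, 3596 and 3609 in shRRM2/shp16. Control and shRRM2 lay close together, and the shRRM2/shp16 libraries were 2.19-fold above shRRM2. That rise passed the test (log2 fold change 1.13 ± 0.02 SE, edgeR adjusted p = 4.81e-36). The difference between shRRM2 and control was small (log2 fold change -0.06 ± 0.02 SE, edgeR adjusted p = 0.0346). Its sign reversed to 0.0766 with limma on log2(RPKM + 1) from all 9 columns of the authors' table, without passing (limma adjusted p = 0.39). With the 8 matching columns it was -0.02 and did not pass (limma adjusted p = 0.626). In edgeR it was lost when any of control a or b, shRRM2 a, b or c or shRRM2/shp16 a, b or c was left out (log2 fold change -0.06 to -0.04). It was also lost in DESeq2 (-0.04), and in edgeR with RLE size factors (-0.04), at least 10 counts in every sample (-0.02) or only the 6 libraries compared (-0.04).

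Type V collagen, built mainly from the COL5A1 and COL5A2 chains, sits inside type I fibrils and controls their width. COL5A1 stood at 1039, 1027 and 1025 CPM in the control, 964, 994 and 1035 in shRRM2 and 692, 676 and 692 in shRRM2/shp16. Control and shRRM2 overlapped (log2 fold change -0.05), and shRRM2/shp16 was lower than both (log2 fold change -0.54 ± 0.03 SE, edgeR adjusted p = 4.27e-22 against shRRM2). Leaving out shRRM2 c brought the difference between shRRM2 and control past the threshold (log2 fold change -0.07), as did using no low-count filter (-0.09). COL5A2 stood at 815, 806 and 803 CPM in the control, 995, 1026 and 1043 in shRRM2 and 1130.5, 1102 and 1119 in shRRM2/shp16. It rose from group to group without overlap, first in shRRM2 (log2 fold change 0.34 ± 0.02 SE, edgeR adjusted p = 1.03e-15) and then with the p16 hairpin (log2 fold change 0.13 ± 0.02 SE, edgeR adjusted p = 1.63e-05). COL5A3, a less widely expressed chain of type V, stood at 49.7, 51.5 and 49.8 CPM in the control, 28.9, 29.8 and 30.3 in shRRM2 and 47.5, 44.5 and 45.2 in shRRM2/shp16. It was lowest in shRRM2 (log2 fold change -0.76 ± 0.05 SE, edgeR adjusted p = 9.46e-17), and higher again in shRRM2/shp16 (log2 fold change 0.62 ± 0.05 SE, edgeR adjusted p = 6.66e-14).

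COL11A1 encodes a chain of type XI collagen, a minor component inside fibrils that is known mainly from cartilage. The gene lies at GRCh38 chr1:102876467-103108872 on the minus strand. It stood at 67.5, 64.1 and 67.3 CPM in the control, 157, 157 and 162 in shRRM2 and 18.9, 20.1 and 21.3 in shRRM2/shp16. The 3 groups were far apart, with shRRM2 highest and shRRM2/shp16 lowest. COL11A1 rose 2.39-fold in shRRM2 (log2 fold change 1.26 ± 0.04 SE, edgeR adjusted p = 5.74e-29) and was 7.9-fold lower with the p16 hairpin (log2 fold change -2.98 ± 0.05 SE, edgeR adjusted p = 3.13e-40). This put it below the control as well (log2 fold change -1.72 ± 0.05 SE, edgeR adjusted p = 5.76e-30). The cartilage markers SOX9 and ACAN were, like COL11A1, lowest in shRRM2/shp16, but were lower in shRRM2 than in the control: SOX9 stood at 148, 157 and 157 CPM in the control, 123, 123 and 120.2 in shRRM2 and 60.8, 61.4 and 64.6 in shRRM2/shp16. COMP, the other tested cartilage marker, was at low counts, 0.251, 0.224 and 0.298 CPM in the control, 0.889, 1.21 and 1.03 in shRRM2 and 0.423, 0.996 and 0.537 in shRRM2/shp16. It was higher in shRRM2 (log2 fold change 2.0 ± 0.40 SE, edgeR adjusted p = 4.01e-05) and, unlike COL11A1, above the control in shRRM2/shp16 (log2 fold change 1.34 ± 0.44 SE, edgeR adjusted p = 0.0073). COL2A1 had at most 6 counts in a library. The stretch before the RefSeq start of COL11A1 is shown because this gene and COL7A1 had the largest fall and the largest rise with the p16 hairpin among collagens above 10 CPM in every group. It spans chr1:103108523-103108772 on the minus strand of GRCh38.p14. Capitals mark GGGCGG (GC box) and CCAAT on either strand.
COL11A1: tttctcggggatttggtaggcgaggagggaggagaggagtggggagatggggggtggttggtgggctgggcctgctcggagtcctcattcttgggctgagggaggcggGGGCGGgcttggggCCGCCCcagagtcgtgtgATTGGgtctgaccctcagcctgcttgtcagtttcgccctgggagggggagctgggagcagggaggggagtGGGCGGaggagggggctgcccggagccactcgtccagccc
The stretch holds GGGCGG 3 times and CCAAT 1 time. Searched on both strands in windows of 300 bases, 250 before and 50 after each RefSeq start, GGGCGG was in 45.0% of 35116 windows of all genes and in 54.5% of 44 collagen windows. CCAAT was in 34.6% and 31.8%, TATAAA in 11.5% and 18.2%, and the AP-1 letters TGANTCA in 7.71% and 2.27%. These windows cover 32 of the 44 collagens, and a base can belong to matches of more than 1 motif.

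COL24A1 and COL27A1 are fibrillar collagens of developing bone and cartilage with low levels here. COL24A1 stood at 9.05, 8.66 and 7.33 CPM in the control, 11.2, 11.5 and 11.7 in shRRM2 and 24.2, 24.9 and 23.7 in shRRM2/shp16. It was higher in each group in that order, first in shRRM2 (log2 fold change 0.44 ± 0.09 SE, edgeR adjusted p = 8.35e-05) and then with the p16 hairpin (log2 fold change 1.08 ± 0.08 SE, edgeR adjusted p = 5.11e-16). COL27A1 stood at 25.5, 26.3 and 27.9 CPM in the control, 45.6, 45.3 and 49.7 in shRRM2 and 25.6, 27.6 and 26.7 in shRRM2/shp16. It was highest in shRRM2 (log2 fold change 0.82 ± 0.06 SE, edgeR adjusted p = 1.25e-16, then log2 fold change -0.82 ± 0.06 SE, edgeR adjusted p = 1.33e-16), and control and shRRM2/shp16 overlapped (log2 fold change 0.01).

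All 5 tested chains of type IV collagen, the sheet-forming collagen of basement membranes, were higher in shRRM2 than in the control, and all 5 were higher in shRRM2/shp16 than in the control. With the p16 hairpin, 3 rose further. Over all tested genes 29%, 30% and 31.9% were called higher in these comparisons, in the order given. COL4A1 and COL4A2 encode the common form. COL4A1 stood at 1824, 1819 and 1858 CPM in the control, 2804, 2868 and 3091 in shRRM2 and 3299, 3262 and 3251 in shRRM2/shp16. Its groups did not overlap and rose in that order (log2 fold change 0.67 ± 0.03 SE, edgeR adjusted p = 2.14e-25, then log2 fold change 0.16 ± 0.03 SE, edgeR adjusted p = 5.86e-07). COL4A2 stood at 1854, 1804 and 1852 CPM in the control, 2280.4, 2399.7 and 2477 in shRRM2 and 2346, 2264 and 2285 in shRRM2/shp16. It rose in shRRM2 (log2 fold change 0.38 ± 0.03 SE, edgeR adjusted p = 7.33e-17), while shRRM2 and shRRM2/shp16 overlapped (log2 fold change -0.05 ± 0.03 SE, edgeR adjusted p = 0.0646). That last difference passed the threshold without shRRM2 a (log2 fold change -0.08). It also passed with RLE size factors, at least 10 counts in every sample or only the 6 libraries compared (-0.06, -0.06 and -0.06). COL4A1 and COL4A2 lie head to head on chromosome 13 (GRCh38 chr13:110148963-110307233, minus strand, and chr13:110305812-110513209, plus strand). Their annotated transcripts overlap, and the strand setting of the counting is not given in the sources used here, so reads from the overlap could have gone to either gene or to neither.

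The bases between the RefSeq starts of the pair are shown because the whole distance is 126 bases and both genes rose in shRRM2. They span chr13:110307158-110307283 of GRCh38.p14, plus strand, with COL4A1 to the left and COL4A2 to the right, and CCAAT in capitals.
COL4A1 and COL4A2: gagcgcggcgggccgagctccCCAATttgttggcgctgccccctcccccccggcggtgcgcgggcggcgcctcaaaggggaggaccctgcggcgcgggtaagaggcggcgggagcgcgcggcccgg
The stretch is 80.2% G and C and holds CCAAT 1 time and GGGCGG 1 time.

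COL4A5 and COL4A6 are another head-to-head pair, on chromosome X, and their products assemble together in some basement membranes, such as that around smooth muscle. COL4A5 stood at 62.7, 58.1 and 60.4 CPM in the control, 129.8, 135 and 139 in shRRM2 and 242, 244 and 246 in shRRM2/shp16. COL4A6 stood at 16, 18.6 and 15.1 CPM in the control, 32.4, 33.5 and 30.9 in shRRM2 and 78.8, 70.1 and 68.8 in shRRM2/shp16. In both, all shRRM2 libraries lay above the control and all shRRM2/shp16 libraries above shRRM2. COL4A5 was 4.03-fold above the control in shRRM2/shp16 (log2 fold change 2.01 ± 0.04 SE, edgeR adjusted p = 4.24e-38), and COL4A6 4.39-fold (log2 fold change 2.14 ± 0.06 SE, edgeR adjusted p = 2.26e-30). COL4A5 rose first in shRRM2 (log2 fold change 1.15 ± 0.04 SE, edgeR adjusted p = 8.62e-28) and again with the p16 hairpin (log2 fold change 0.86 ± 0.03 SE, edgeR adjusted p = 1.51e-25). COL4A6 did the same (log2 fold change 0.97 ± 0.07 SE, edgeR adjusted p = 1.28e-15, then log2 fold change 1.17 ± 0.06 SE, edgeR adjusted p = 4.78e-22). The summed level of smooth muscle and pericyte markers, given above, was lowest in shRRM2/shp16. RGS5, a pericyte marker of that list, went the other way, in the same order as COL4A5 and COL4A6, and stood at 1.72, 1.79 and 1.67 CPM in the control, 7.62, 7.04 and 7.17 in shRRM2 and 12.1, 12.7 and 12.4 in shRRM2/shp16. It rose in shRRM2 (log2 fold change 2.07 ± 0.14 SE, edgeR adjusted p = 2e-16) and again with the p16 hairpin (log2 fold change 0.78 ± 0.10 SE, edgeR adjusted p = 3.89e-09), and its part in these results was not tested. MYH11, the defining gene of mature smooth muscle, was at 0.417 CPM or less in every library.

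The upstream stretches of COL4A5 and COL4A6 are shown because the genes rose together. Their RefSeq starts are 379 bases apart, so the 250 bases before each start overlap by 121 bases, which are in capitals. They span chrX:108439588-108439837 (plus strand) and chrX:108439459-108439708 (minus strand) of GRCh38.p14.
COL4A5: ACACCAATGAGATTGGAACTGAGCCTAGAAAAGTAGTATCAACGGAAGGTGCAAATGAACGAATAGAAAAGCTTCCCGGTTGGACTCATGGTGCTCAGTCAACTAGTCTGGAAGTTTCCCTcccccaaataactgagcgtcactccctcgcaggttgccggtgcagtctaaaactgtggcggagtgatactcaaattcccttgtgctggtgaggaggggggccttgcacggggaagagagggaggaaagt
COL4A6: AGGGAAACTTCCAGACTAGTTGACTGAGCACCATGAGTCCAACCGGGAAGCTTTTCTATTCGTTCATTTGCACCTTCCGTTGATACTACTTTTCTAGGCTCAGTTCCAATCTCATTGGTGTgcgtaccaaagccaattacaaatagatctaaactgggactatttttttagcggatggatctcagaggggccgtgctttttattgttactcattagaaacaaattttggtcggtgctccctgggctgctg
CCAAT on either strand was found 2 times in the COL4A5 stretch and 3 times in that of COL4A6, and GGGCGG in neither.

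COL4A4, which is known from the basement membranes of kidney, lung and inner ear, was at under 1 CPM in all libraries, 0.251, 0.279 and 0.179 CPM in the control, 0.698, 0.865 and 0.631 in shRRM2 and 0.475, 0.349 and 0.806 in shRRM2/shp16. It was higher in shRRM2 (log2 fold change 1.59 ± 0.44 SE, edgeR adjusted p = 0.00194), though not past the threshold with limma on log2(RPKM + 1), with all 9 or the 8 matching columns (0.07 and 0.08). Its difference between shRRM2/shp16 and control (log2 fold change 1.15 ± 0.46 SE, edgeR adjusted p = 0.0283) was lost without control a (1.21), control c (1.01) or shRRM2/shp16 c (0.77). That difference was also lost in DESeq2 (1.18), without a low-count filter (1.13) and with limma on log2(RPKM + 1) (0.05). COL4A3, its head-to-head neighbour, had at most 6 counts in a library.

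Type VI collagen forms the beaded filaments that link cells to the surrounding matrix. Its main chains COL6A1, COL6A2 and COL6A3 all fell in shRRM2 and all rose again with the p16 hairpin. Over all tested genes 31.8% fell in shRRM2, 31.9% rose with the p16 hairpin and 62.4% differed between shRRM2/shp16 and control. These chains had a median level of 11.13 on the log2 CPM scale, against 3.97 over all tested genes, and nothing is read from their counts of calls. COL6A1 stood at 2447, 2379 and 2438 CPM in the control, 1717, 1754 and 1778 in shRRM2 and 2581, 2522 and 2588 in shRRM2/shp16. COL6A2 stood at 2796, 2633 and 2643 CPM in the control, 1419, 1468 and 1429 in shRRM2 and 2538, 2452 and 2457 in shRRM2/shp16. COL6A3, the largest chain, stood at 7969.9, 7645 and 7691 CPM in the control, 5371, 5548 and 5631 in shRRM2 and 6478, 6324 and 6303 in shRRM2/shp16. In each, the shRRM2 libraries were lowest and did not overlap with either other group. COL6A2 fell the most in shRRM2 (log2 fold change -0.90 ± 0.03 SE, edgeR adjusted p = 9.97e-31), followed by COL6A3 (log2 fold change -0.49 ± 0.02 SE, edgeR adjusted p = 1.41e-22) and COL6A1 (log2 fold change -0.47 ± 0.02 SE, edgeR adjusted p = 2.07e-21). With the p16 hairpin COL6A2 rose the most (log2 fold change 0.79 ± 0.03 SE, edgeR adjusted p = 9.29e-29), followed by COL6A1 (log2 fold change 0.55 ± 0.02 SE, edgeR adjusted p = 3.82e-24) and COL6A3 (log2 fold change 0.21 ± 0.02 SE, edgeR adjusted p = 1.34e-10). Against the control, shRRM2/shp16 stood at a log2 fold change of 0.08 for COL6A1, -0.12 for COL6A2 and -0.29 for COL6A3, and all 3 passed the threshold. With limma on log2(RPKM + 1) from all 9 columns of the authors' table these 3 kept their direction but did not pass. With the 8 matching columns COL6A1 (0.19) and COL6A3 (-0.18) passed and COL6A2 (-0.01) did not. The rise of COL6A3 with the p16 hairpin likewise did not pass with all 9 columns (0.16) and passed with the 8.

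COL7A1 encodes the anchoring fibril collagen that ties the basement membrane of the skin to the dermis. The gene lies at GRCh38 chr3:48564073-48595267 on the minus strand. It stood at 158, 145 and 151 CPM in the control, 112, 119 and 118 in shRRM2 and 774, 749 and 749 in shRRM2/shp16. The shRRM2 libraries were lowest, and those of shRRM2/shp16 were 6.52-fold above them. COL7A1 fell in shRRM2 (log2 fold change -0.38 ± 0.03 SE, edgeR adjusted p = 6.02e-13), rose with the p16 hairpin (log2 fold change 2.70 ± 0.03 SE, edgeR adjusted p = 9.93e-45) and ended 5.0-fold above the control (log2 fold change 2.32 ± 0.03 SE, edgeR adjusted p = 4.16e-43). The fall in shRRM2 was -0.17 to -0.16 and did not pass in the 3 limma alternatives with all 9 columns (limma adjusted p = 0.242 to 0.256), and it passed with the 8 matching columns. The stretch before its RefSeq start spans chr3:48595330-48595579 on the minus strand of GRCh38.p14, with GGGCGG in capitals on either strand.
COL7A1: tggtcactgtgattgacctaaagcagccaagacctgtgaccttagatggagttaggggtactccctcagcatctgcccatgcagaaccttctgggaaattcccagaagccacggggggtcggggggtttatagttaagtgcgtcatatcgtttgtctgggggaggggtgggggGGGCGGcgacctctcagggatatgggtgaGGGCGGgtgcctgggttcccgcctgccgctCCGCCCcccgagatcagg
It holds GGGCGG 3 times and no CCAAT.

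COL8A1 and COL8A2 encode the short-chain network collagen of vessel walls and of the membrane under the corneal endothelium. COL8A1 stood at 208, 219.9 and 219 CPM in the control, 239, 243 and 248 in shRRM2 and 574, 588 and 581 in shRRM2/shp16. It was slightly higher in shRRM2 than in the control (log2 fold change 0.17 ± 0.03 SE, edgeR adjusted p = 3.49e-06), and 2.39-fold higher again with the p16 hairpin (log2 fold change 1.26 ± 0.03 SE, edgeR adjusted p = 2.89e-34). The endothelial marker TEK, also highest in shRRM2/shp16, stood at 62.8, 65.2 and 67.5 CPM in the control, 69.3, 65.4 and 67.7 in shRRM2 and 118, 109 and 118 in shRRM2/shp16, while the endothelial markers PECAM1 and CDH5 were at 1.04 CPM or less. COL8A2 stood at 2.1, 1.12 and 2.62 CPM in the control, 2.35, 1.5 and 2.24 in shRRM2 and 0.898, 0.846 and 0.806 in shRRM2/shp16. Control and shRRM2 overlapped, and all shRRM2/shp16 libraries were lower (log2 fold change -1.24 ± 0.28 SE, edgeR adjusted p = 0.000194 against shRRM2). With limma on all 9 columns this fall was -0.19 on log2(RPKM + 1) and did not pass. The chains of this network went in opposite directions in shRRM2/shp16.

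Of the 6 tested FACITs, 5 changed in shRRM2 (83.3%; 2 higher, 3 lower), 5 with the p16 hairpin (83.3%; 3 higher, 2 lower) and 3 in shRRM2/shp16 against the control (50%; all lower). Over all tested genes 60.9%, 61.1% and 62.4% changed in these comparisons, and nothing is read from the FACIT counts. COL12A1, the most abundant, stood at 2640.4, 2599 and 2608 CPM in the control, 3355, 3346 and 3513 in shRRM2 and 2527, 2505 and 2493 in shRRM2/shp16. It was high in shRRM2 (log2 fold change 0.38 ± 0.02 SE, edgeR adjusted p = 2.15e-18) and lower again with the p16 hairpin (log2 fold change -0.44 ± 0.02 SE, edgeR adjusted p = 9.17e-21). A small difference remained between shRRM2/shp16 and the control (log2 fold change -0.06 ± 0.02 SE, edgeR adjusted p = 0.0219). Its sign reversed to 0.0426 with limma on log2(RPKM + 1), without passing (limma adjusted p = 0.624). The 8 matching columns leave out only shRRM2 c, which is in neither group, so they give the same value (limma adjusted p = 0.0716).

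COL14A1, a FACIT that is known to limit fibril growth, stood at 61.4, 59.8 and 59.5 CPM in the control, 6.92, 7.04 and 7.17 in shRRM2 and 64.8, 62.8 and 65.6 in shRRM2/shp16. The shRRM2 libraries were far below both other groups, which lay side by side. It fell 8.55-fold in shRRM2 (log2 fold change -3.10 ± 0.07 SE, edgeR adjusted p = 5.86e-35) and was 9.13-fold higher with the p16 hairpin (log2 fold change 3.19 ± 0.07 SE, edgeR adjusted p = 4.99e-36). Against the control shRRM2/shp16 did not pass (log2 fold change 0.09 ± 0.04 SE, edgeR adjusted p = 0.056). It did so when control a (0.12), shRRM2 a, b or c (0.10, 0.10 and 0.10) or shRRM2/shp16 b (0.12) was left out. It also passed in edgeR with at least 10 counts in every sample (0.12) or only the 6 libraries compared (0.11), and with limma on the 8 matching columns (0.18).

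COL16A1, which is found beside fibrils in skin and cartilage, stood at 114, 108 and 111 CPM in the control, 77.2, 81.7 and 86.2 in shRRM2 and 103, 105 and 103 in shRRM2/shp16. It was lowest in shRRM2 (log2 fold change -0.44 ± 0.04 SE, edgeR adjusted p = 5.12e-13) and rose with the p16 hairpin (log2 fold change 0.34 ± 0.04 SE, edgeR adjusted p = 9.3e-10). COL22A1, a collagen of tissue junctions such as that of muscle and tendon, stood at 1.93, 1.34 and 1.91 CPM in the control, 0.635, 0.577 and 0.689 in shRRM2 and 2.85, 2.09 and 1.77 in shRRM2/shp16. It too was lowest in shRRM2 (log2 fold change -1.45 ± 0.29 SE, edgeR adjusted p = 4.05e-05, then log2 fold change 1.81 ± 0.28 SE, edgeR adjusted p = 3.22e-07), at counts low enough to widen its standard error. COL9A2 and COL9A3, cartilage FACITs, were low. COL9A2 stood at 6.24, 5.93 and 6.02 CPM in the control, 8.25, 7.27 and 8.15 in shRRM2 and 6.07, 7.07 and 6.72 in shRRM2/shp16, higher in shRRM2 (log2 fold change 0.37 ± 0.11 SE, edgeR adjusted p = 0.0039). Its fall with the p16 hairpin (log2 fold change -0.25 ± 0.11 SE, edgeR adjusted p = 0.0486) was at the threshold. It was lost without control a (-0.25), b (-0.25) or c (-0.25), shRRM2 a (-0.22) or c (-0.22), or shRRM2/shp16 a (-0.19) or c (-0.25), and with the replicate block (adjusted p = 0.0551). Nor did it pass in DESeq2 (-0.26), without a low-count filter (-0.23) or in the 4 limma alternatives. COL9A3 stood at 0.838, 0.95 and 1.07 CPM in the control, 0.762, 0.577 and 0.803 in shRRM2 and 0.423, 0.498 and 0.537 in shRRM2/shp16, and passed in shRRM2/shp16 against the control (log2 fold change -0.95 ± 0.33 SE, edgeR adjusted p = 0.0128) but in neither other comparison. This gene overlaps TCFL5 on the other strand, which had 120 to 242 counts a library.

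The multiplexins COL15A1 and COL18A1 are basement membrane proteins with sugar side chains, and the end of COL18A1 is cut off as endostatin, an inhibitor of vessel growth. COL15A1 stood at 26.9, 25.8 and 25.7 CPM in the control, 13, 14.7 and 15.6 in shRRM2 and 22.9, 24.3 and 23.8 in shRRM2/shp16. It was lowest in shRRM2 (log2 fold change -0.86 ± 0.07 SE, edgeR adjusted p = 5.85e-14) and higher with the p16 hairpin (log2 fold change 0.71 ± 0.07 SE, edgeR adjusted p = 2.01e-11). With limma on log2(RPKM + 1) from all 9 columns neither passed (-0.41 and 0.38), and with the 8 matching columns both did. COL18A1 stood at 235, 229 and 224 CPM in the control, 223, 238 and 224 in shRRM2 and 265, 249 and 254 in shRRM2/shp16. Control and shRRM2 overlapped, and it was a little higher in shRRM2/shp16 (log2 fold change 0.16 ± 0.03 SE, edgeR adjusted p = 2.23e-05 against shRRM2). It overlaps SLC19A1 on the other strand, at 186 to 573 counts a library.

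Of the transmembrane collagens, COL13A1, a cell adhesion protein, stood at 61.3, 60.4 and 58.5 CPM in the control, 51.7, 49.3 and 50.6 in shRRM2 and 29.9, 30.0 and 32 in shRRM2/shp16. It was lower in each group in that order, first in shRRM2 (log2 fold change -0.25 ± 0.05 SE, edgeR adjusted p = 9.3e-06) and then with the p16 hairpin (log2 fold change -0.72 ± 0.05 SE, edgeR adjusted p = 2.51e-16). COL25A1, known mainly from neurons, stood at 0.88, 1.12 and 1.01 CPM in the control, 1.46, 1.62 and 2.47 in shRRM2 and 1.27, 1.34 and 0.914 in shRRM2/shp16. It was higher in shRRM2 (log2 fold change 0.90 ± 0.26 SE, edgeR adjusted p = 0.00317) and lower with the p16 hairpin (log2 fold change -0.65 ± 0.26 SE, edgeR adjusted p = 0.0251). Both calls rested on shRRM2 c: without it they were 0.64 and -0.38, and neither passed. Without shRRM2/shp16 c the second was -0.50 and did not pass, nor did it in DESeq2 (adjusted p = 0.0798). With limma on log2(RPKM + 1) neither passed (0.09 and -0.04). COL17A1, the hemidesmosome collagen of epithelial cells, had 4 counts over the shRRM2/shp16 libraries together, against 38 in shRRM2 and 31 in the control. The ratio of scaled counts was 10.8 to 1 for shRRM2 over shRRM2/shp16 (95% interval 3.9 to 41.8, counting error only; edgeR adjusted p = 2.9e-06). For the control over shRRM2/shp16 it was 7.63 to 1 (2.7 to 29.7; edgeR adjusted p = 8.57e-05). COL28A1, which belongs to none of these classes, stood at 0.335, 0.671 and 0.417 CPM in the control, 1.08, 0.865 and 0.459 in shRRM2 and 0.898, 1.39 and 0.967 in shRRM2/shp16. It passed in shRRM2/shp16 against the control (log2 fold change 1.23 ± 0.35 SE, edgeR adjusted p = 0.00249). In shRRM2 against the control it passed only without control b (1.09) or shRRM2 c (1.06) among the libraries left out.

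Summed over all 44 genes, collagens took 4.13 ± 0.0412% of gene-assigned counts in the control, 4.26 ± 0.058% in shRRM2 and 4.47 ± 0.050% in shRRM2/shp16 (mean ± SD, n = 3). With library sizes scaled by TMM the gaps narrowed, to 4.28% in both control and shRRM2 and 4.31% in shRRM2/shp16. The classes moved more than this total. Type VI chains took 1.24 ± 0.0214% in the control, 0.865 ± 0.0136% in shRRM2 and 1.18 ± 0.0147% in shRRM2/shp16. Basement membrane chains took 0.362 ± 0.00336%, 0.544 ± 0.0224% and 0.61 ± 0.00623% in the same order. COL7A1 went from 0.0115 ± 0.000313% in shRRM2 to 0.0785 ± 0.00141% in shRRM2/shp16. Within the collagens, COL1A1 made up 29.6% to 29.7% of counts in the control, 30.9% to 31.7% in shRRM2 and 21.6% to 21.7% in shRRM2/shp16, while COL3A1 made up 4.0% to 4.05%, 3.85% to 3.89% and 8.41% to 8.44%. These shares are given as a description, with no test.

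**Figure D3:**
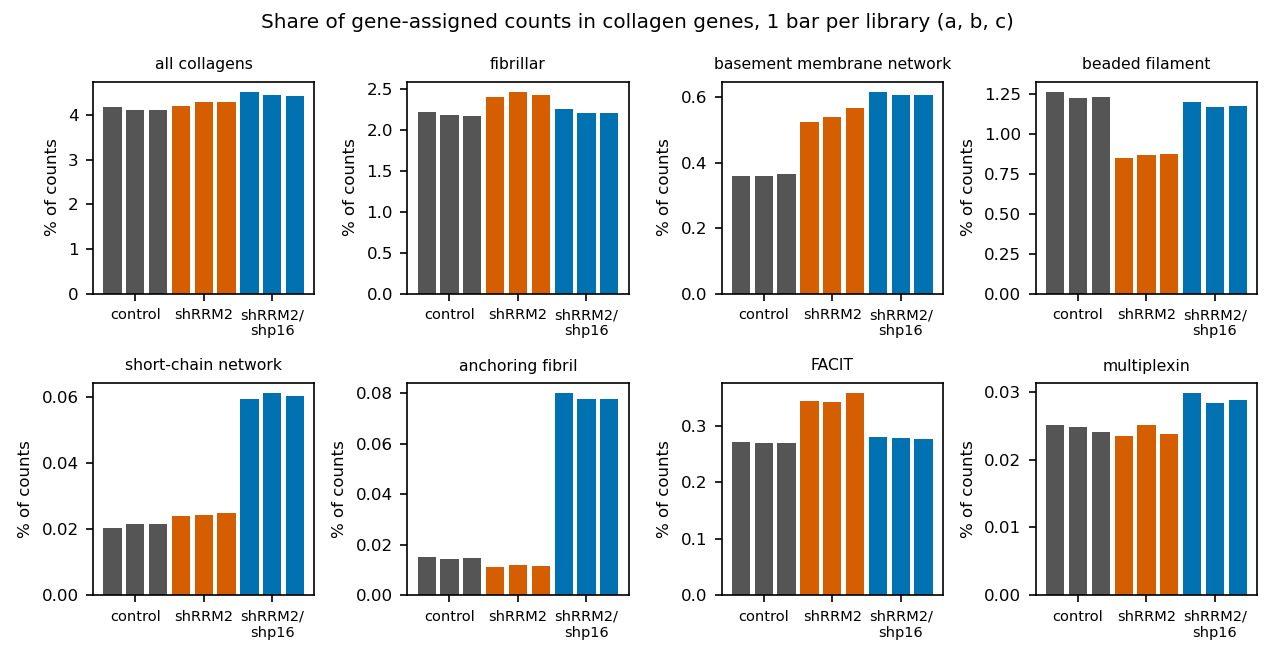
Percent of gene-assigned counts in all collagen genes and in 7 collagen classes, 1 bar for each library (a, b, c) of control (grey), shRRM2 (orange) and shRRM2/shp16 (blue), with each axis from 0 and its own scale. The summed share stays between 4.11% and 4.53%, the type VI (beaded filament) bars are lowest in shRRM2, and the short-chain and anchoring fibril bars are high in shRRM2/shp16.

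Chains that assemble into one molecule did not always move in step. The ratio of COL1A1 to COL1A2 counts was 2.0, 2.02 and 2.03 in the control, 1.89, 1.88 and 1.89 in shRRM2 and 1.41, 1.42 and 1.43 in shRRM2/shp16. The ratio of COL5A1 to COL5A2 was 1.27, 1.27 and 1.28 in the control, 0.968, 0.969 and 0.992 in shRRM2 and 0.612, 0.614 and 0.618 in shRRM2/shp16. Both ratios were lower in each group in that order, with no overlap. COL4A1 to COL4A2 went the other way, at 0.984, 1.01 and 1.0 in the control, 1.23, 1.2 and 1.25 in shRRM2 and 1.41, 1.44 and 1.42 in shRRM2/shp16. The ratio of COL6A1 to COL6A2 was highest in shRRM2, at 0.875, 0.904 and 0.923 in the control, 1.21, 1.2 and 1.24 in shRRM2 and 1.02, 1.03 and 1.05 in shRRM2/shp16. COL6A3 to COL6A1 stood at 3.26, 3.21 and 3.15 in the control, 3.13, 3.16 and 3.17 in shRRM2 and 2.51, 2.51 and 2.44 in shRRM2/shp16. Control and shRRM2 overlapped in this ratio, and shRRM2/shp16 was lower. The COL4A5 to COL4A6 ratio ran from 3.13 to 4.0 in the control, 4.0 to 4.49 in shRRM2 and 3.07 to 3.58 in shRRM2/shp16, with control and both other groups overlapping. These are ratios of counts, not corrected for length, so only their change between groups is read, as a description.

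**Figure D4:**
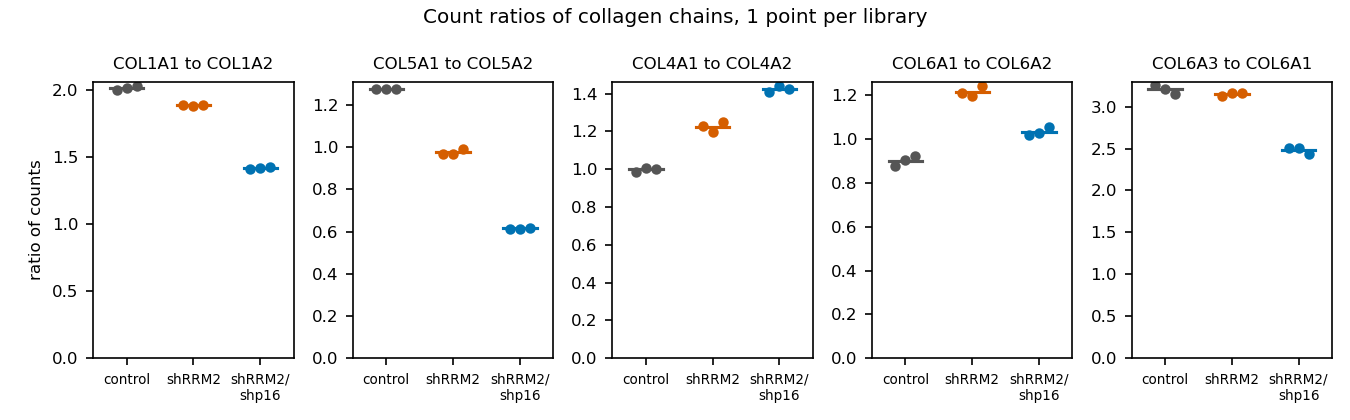
Ratio of counts of chains that assemble together, 1 point per library and a line at the mean of 3, in control (grey), shRRM2 (orange) and shRRM2/shp16 (blue). COL1A1 to COL1A2 falls from 2.02 to 1.89 and 1.42 and COL5A1 to COL5A2 from 1.28 to 0.976 and 0.615, while COL4A1 to COL4A2 rises from 0.999 to 1.22 and 1.42.

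A list of 45 genes that modify, fold, cut, cross-link or bind collagen, 42 of them tested, was set beside the chains. In shRRM2 against the control 30 changed (71.4%; 21 higher, 9 lower; median log2 fold change 0.12), in shRRM2/shp16 against shRRM2 also 30 (71.4%; 10 higher, 20 lower; median -0.18), and in shRRM2/shp16 against the control 34 (81%; 12 higher, 22 lower; median -0.08). Over all tested genes 60.9%, 61.1% and 62.4% changed in these comparisons, with 29%, 31.9% and 30% higher and 31.8%, 29.1% and 32.4% lower, and the medians were 0.00, 0.01 and 0.01. Of the lysyl oxidases, which cross-link collagen, 4 of 5 fell with the p16 hairpin, and in shRRM2/shp16 against the control 5 of 5 were lower. LOX stood at 1172, 1206 and 1186 CPM in the control, 1334, 1334 and 1309.7 in shRRM2 and 665, 681 and 669 in shRRM2/shp16, lowest in shRRM2/shp16 (log2 fold change -0.98 ± 0.02 SE, edgeR adjusted p = 8.87e-33 against shRRM2). LOXL1 stood at 133, 129.9 and 134 CPM in the control, 132, 144 and 143 in shRRM2 and 51.3, 48.9 and 49.3 in shRRM2/shp16 (log2 fold change -1.49 ± 0.04 SE, edgeR adjusted p = 3.14e-31). LOXL4 stood at 15, 12.8 and 13.9 CPM in the control, 29.1, 29.9 and 27.7 in shRRM2 and 11.1, 12.3 and 12.5 in shRRM2/shp16, highest in shRRM2 (log2 fold change 1.04 ± 0.07 SE, edgeR adjusted p = 2e-16) and lower with the p16 hairpin (log2 fold change -1.27 ± 0.08 SE, edgeR adjusted p = 5.33e-19). LOXL3 was the one that fell in shRRM2 (log2 fold change -0.59 ± 0.09 SE, edgeR adjusted p = 3.63e-07), from 13.8 to 15.5 CPM in the control to 9.18 to 10.0 CPM.

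Of the 14 genes for hydroxylation and sugar addition, 9 changed in shRRM2 (64.3%, near the 60.9% of all tested genes; 8 higher) and 12 with the p16 hairpin (85.7%, against 61.1%; 9 lower). LEPREL1, a prolyl hydroxylase now called P3H2, stood at 61.9, 58.6 and 61.5 CPM in the control, 162, 160.2 and 162 in shRRM2 and 54.4, 52.3 and 50.3 in shRRM2/shp16, highest in shRRM2 (log2 fold change 1.41 ± 0.04 SE, edgeR adjusted p = 5.58e-31, then log2 fold change -1.62 ± 0.04 SE, edgeR adjusted p = 3.19e-33). COLGALT2, a galactosyltransferase that acts on collagen, fell with the p16 hairpin (log2 fold change -1.38 ± 0.17 SE, edgeR adjusted p = 2.99e-09). P4HA3, a catalytic chain of prolyl hydroxylase, rose (log2 fold change 1.0 ± 0.05 SE, edgeR adjusted p = 2.9e-21). CREB3L1, a transcription factor that is known to activate type I collagen genes, stood at 337, 339.6 and 353 CPM in the control, 326, 325 and 338 in shRRM2 and 129, 129 and 123 in shRRM2/shp16. It was much lower in shRRM2/shp16 (log2 fold change -1.37 ± 0.03 SE, edgeR adjusted p = 4.28e-34). The secretion factor CTAGE5 rose in shRRM2 (log2 fold change 1.12 ± 0.21 SE, edgeR adjusted p = 9.03e-06), at 1.45 to 3.84 CPM in these groups. With the p16 hairpin TMEM38B (log2 fold change 0.74 ± 0.09 SE, edgeR adjusted p = 1.84e-09) and FKBP10 (log2 fold change 0.47 ± 0.03 SE, edgeR adjusted p = 1.03e-17), both listed under chaperones and secretion, rose.

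Among genes that cut procollagen, PCOLCE, an enhancer of the enzyme that removes the end of the chains, stood at 202, 214 and 202 CPM in the control, 86.1, 81 and 83.1 in shRRM2 and 203, 204 and 208 in shRRM2/shp16. Its shRRM2 libraries were lowest (log2 fold change -1.31 ± 0.04 SE, edgeR adjusted p = 3.59e-31, then log2 fold change 1.30 ± 0.04 SE, edgeR adjusted p = 2.2e-31), and control and shRRM2/shp16 overlapped. The proteases ADAMTS2 (log2 fold change -0.46 ± 0.05 SE, edgeR adjusted p = 1.65e-11) and ADAMTS3 (log2 fold change -0.59 ± 0.13 SE, edgeR adjusted p = 0.000166) fell in shRRM2. ITGA11, the integrin chain by which fibroblasts hold fibrillar collagen, stood at 28.5, 30.1 and 30.7 CPM in the control, 101, 101 and 99.6 in shRRM2 and 119.6, 117 and 114 in shRRM2/shp16. It rose in shRRM2 (log2 fold change 1.76 ± 0.05 SE, edgeR adjusted p = 5.34e-32) and stayed above the control with the p16 hairpin (log2 fold change 1.98 ± 0.04 SE, edgeR adjusted p = 9.86e-35). Of the 8 receptors, 6 changed in each comparison (75%, against 60.9% to 62.4% of all tested genes), and nothing is read from this count.

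**Figure D5:**
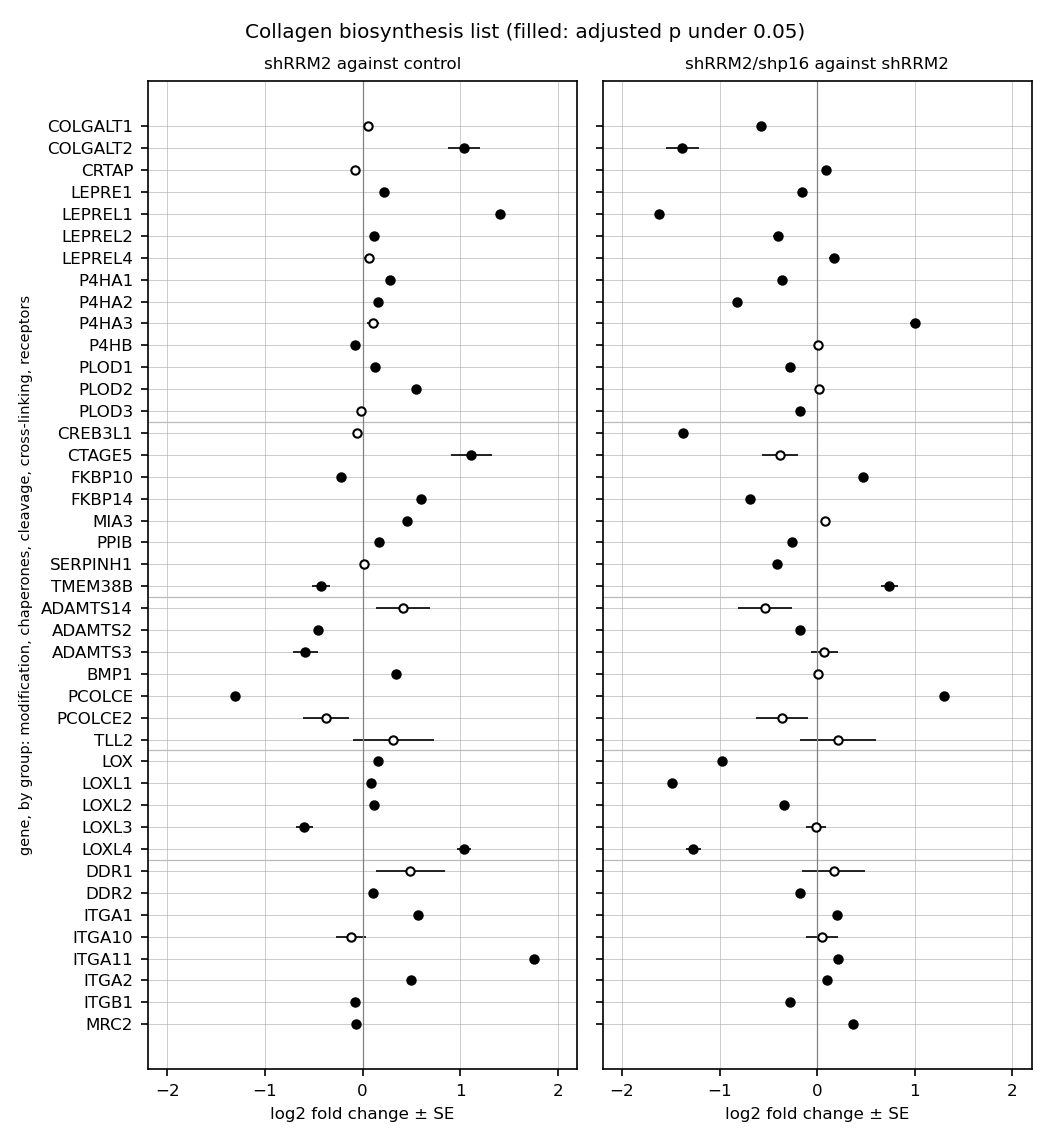
Log2 fold change from the edgeR fit for the 42 tested genes of the collagen biosynthesis list, with a standard error derived from the F statistic. Genes are grouped by role, in shRRM2 against control (left) and shRRM2/shp16 against shRRM2 (right), with filled points for an adjusted p under 0.05. PCOLCE is lowest on the left (-1.31) and highest on the right (1.30), ITGA11 is highest on the left (1.76) and LEPREL1 lowest on the right (-1.62).

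The authors' deposited table gives its own log2 fold changes and q-values for shRRM2/shp16 against shRRM2. Of the 28 collagens called from the counts, 15 had a q under 0.05 in the authors' deposited table, all with the same sign, and 13 did not. COL1A1 is one of the 13 (log2 fold change -0.37 and q = 0.138 in the authors' deposited table, against -0.53 from the counts). COL24A1 is another (0.83 and q = 0.119 there, against 1.08). COL25A1 was the one called collagen with the opposite sign in the authors' deposited table (0.82, q = 0.334).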

How the data were processed

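RNA was measured in 9 IMR90 libraries, 3 for each group, with groups and replicate letters taken from the labels. The authors deposited raw counts per gene, in the layout of HTSeq output. Per the file headers, a table the authors deposited holds log2 RPKM values, with log2 fold changes, p-values and q-values for the 2 groups with an RRM2 hairpin. The submitters' processing notes name TopHat2 2.0.9, Cufflinks 2.0.2, Cuffdiff and GRCh38. The annotation and the strand setting of the counting are not given in the sources used here. The log2 values in the authors' deposited table were read as log2(x + 1), where x is RPKM per base in place of per kilobase. With the counts, 8 of 9 columns then implied the same gene lengths within 1%, but shRRM2 c did not. This check compares columns with each other and does not test the scale itself. The RPKM levels given were therefore computed from the counts with the gene lengths that the 8 columns imply. The limma alternatives used the authors' RPKM values, without TMM scaling, with all 9 columns or the 8 matching ones. There were 0 unmatched columns of per-sample values.

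Counts were fitted with edgeR 4.0.16 in R 4.3.3 (filterByExpr, TMM, glmQLFit over all 9 libraries, 6 residual degrees of freedom), which kept 16561 genes with 99.8% of counts. Unassigned reads, 17.6% to 28.8% of unique reads for those outside genes and 3.74% to 6.02% for ambiguous ones, were kept out. Two-sided tests had their p-values adjusted (Benjamini-Hochberg) across the tested genes, with a threshold of 0.05. Each SE given is the size of the log2 fold change divided by the square root of the test's F statistic. No pair of libraries in a group agreed within counting noise (chi-square per degree of freedom 1.41 to 2.70). Alternatives used DESeq2 1.42.0, limma 3.58.1, other filters and scalings, a replicate block and leaving out each library. Gene positions came from GENCODE 29 (GRCh38), in which all 44 collagens were found, and promoter windows from RefSeq (GRCh38.p14), which matched 32 of the 44. The fit was tested on simulated data. Members, classes and lists were chosen with earlier results of these data known. Genes named with values for each library were the 12 with the most counts, those with the 5 highest and 5 lowest changes past the threshold in each comparison (with mean log2 CPM not under 0) and, added after their values were seen, the other tested collagens. Of the biosynthesis list, the 4 highest and 4 lowest changes in the first and second comparison were named, and LOX and SERPINH1 were added after their values were seen.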

Additional observations from a re-analysis of the deposited data

How the results depend on the processing

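The 19 alternatives were run on the 96 changes of single collagens, 3 comparisons each for 32 genes. Of the 81 calls, 59 held in every alternative that gave a value for the gene and 69 in every such fit to the counts. Some low-count genes had no value in some alternatives. COL17A1 in shRRM2/shp16 against control, for example, had one in 16 of 19. Of 1788 values, 1651 kept their side of the threshold, 112 lost their call and 18 gained one. The other 7 reversed the sign of a called change, and none of these passed in the new direction. A change not called in either fit could switch direction and still be among the 1651. COL18A1 in shRRM2 against control did so, with log2 fold changes from -0.05 to 0.11 over the alternatives. The reversals were COL3A1 in shRRM2 against control and COL12A1 in shRRM2/shp16 against control. COL3A1 had 0.0766 with limma on log2(RPKM + 1), 0.0768 on log2(RPKM + 0.1) and 0.0766 for a mean RPKM of at least 1. These used the shRRM2 c column that does not match its counts, and with the 8 matching columns COL3A1 had -0.0151. COL12A1 had 0.0426, 0.0428 and 0.0426 in the same order and 0.0426 with the 8 matching columns, which leave out no library of either group compared. The limma alternatives had no TMM scaling. In shRRM2/shp16 against control, COL6A1 also went from 0.08 in edgeR to 0.19 with limma on log2(RPKM + 1), and COL6A2 from -0.12 to -0.01. The part of the scaling in the reversals was not tested. With a mean RPKM of at least 1, limma called 15 collagens in shRRM2/shp16 against control and 19 biosynthesis genes in shRRM2 against control, where fewer genes were tested. Over all alternatives the called collagens ranged from 20 to 26 in shRRM2 against control, from 20 to 29 in shRRM2/shp16 against shRRM2 and from 15 to 28 in shRRM2/shp16 against control. Leaving out 1 library gave 25 to 26, 26 to 28 and 22 to 28 called collagens, and 28 to 30, 29 to 31 and 31 to 35 biosynthesis genes. The summed share was 4.2835% in the control, 4.2839% in shRRM2 and 4.3095% in shRRM2/shp16 with TMM-scaled sizes, and 2.1328%, 2.0485% and 2.4424% without COL1A1, COL1A2 and COL3A1. With the replicate letter as a block, 26, 27 and 27 collagens and 30, 30 and 34 biosynthesis genes were called, in place of 26, 28 and 27 and of 30, 30 and 34. Same-letter libraries of different groups correlated by -0.0198 to 0.0486, so the letters were not taken as pairs; the block ended the call of COL9A2 alone among the collagens. Collagens with few counts, such as COL4A4, COL8A2, COL17A1, COL22A1, COL25A1 and COL28A1, have wide errors at this depth.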

Other observations

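Neighbouring collagen genes on one chromosome differed in the size of their changes. COL3A1 and COL5A2 lie tail to tail on chromosome 2, 19150 bases apart. With the p16 hairpin COL3A1 had a log2 fold change of 1.13 and COL5A2 one of 0.13, and both passed the threshold. COL6A1 and COL6A2 lie 93047 bases apart on chromosome 21 in the same direction, and their log2 fold changes in shRRM2 were -0.47 and -0.90. Antisense genes named after collagens were near 0: COL4A2-AS1 had 2 to 7 counts a library, COL4A2-AS2 0 to 8, and COL5A1-AS1 0 in all 9 libraries.

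Of the folding genes not described above, SERPINH1, the collagen chaperone also called HSP47, stood at 605, 566 and 580 CPM in the control, at 581, 594 and 589 in shRRM2 and at 447, 444 and 439 in shRRM2/shp16. The shRRM2/shp16 libraries were below both other groups, which overlapped (log2 fold change -0.41 against shRRM2, edgeR adjusted p = 3.52e-17).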
